A study of Mus musculus with 6 samples.

Results

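The mitochondrial ribosomal protein genes of the mouse were taken by name, as every symbol that begins with Mrpl or Mrps, goes on with a number and may end in a, b or c. The rule found 77 genes among the 24067 symbols that both deposited expression tables list. Of these, 48 carry the Mrpl name of the large ribosomal subunit and 29 the Mrps name of the small subunit. The name does not always give the place in the ribosome. An alternative by place, added later, put Mrps18a and Mrps30 in the large subunit and left out Mrps36. None of its 18 recomputed values moved beyond the limits given at the end. All counts below keep the names. The 77 genes lie on 17 chromosomes. The rule used no measured value, though the members were chosen with earlier results of these data known. Each gene stood above 1 FPKM (fragments per kilobase, a level corrected for transcript length and library size) in every library. A filter on low values therefore removed none.

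Mitochondrial ribosomes translate the few messages of the mitochondrial genome, which encode core subunits of the respiratory chain and of ATP synthase. Their RNAs come from mitochondrial DNA, while their proteins are encoded in the nucleus, made on cytosolic ribosomes and imported. Satellite cells lie beside the muscle fibres and rebuild them after injury. In their quiescent state they hold few mitochondria, and they add mitochondrial mass when they activate. YY1 is a zinc finger transcription factor known to bind promoters of many housekeeping and mitochondrial genes.

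Adult mouse muscle satellite cells were studied in 6 samples. RNA with a polyA tail was read in cells taken fresh from muscle (FISC) and in cells activated by 36 h in culture (ASC). In each state there was 1 wild-type library (WT) and 1 with the Yy1 label iKO. From ASC labelled C57, 1 YY1 immunoprecipitation and 1 input library were made. The labels give F10 medium with serum as the growth medium. The sources used here do not give how or in which cells Yy1 was deleted, the driver, the age of the mice or how many were pooled. With 1 library per group, no difference below has a replicate check, and no p-value or standard error can be given.

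The Yy1 transcript stood at 51.0 FPKM in FISC WT, 20.1 in FISC iKO, 55.2 in ASC WT and 2.03 in ASC iKO, so both iKO libraries were low and the ASC library the lower. Of the markers that define the labelled cells, Pax7 stood at 61.8, 78.3, 28.3 and 6.19 FPKM in the same order, and Myf5 and Cdh15 were at 28.3 FPKM or more in every library. Of the 9 satellite cell markers, all were at 1 FPKM or more in FISC and in ASC WT and 7 in ASC iKO. There Chodl stood at 0.589 and Calcr at 0.512 FPKM, after 1.29 and 1.14 in ASC WT and at least 42.8 in FISC. Markers of other cells were summed per library. Fibroblast markers came to 325 to 340 FPKM in FISC and 18.01 to 39.1 in ASC, and erythroid markers to 300 to 460 FPKM in FISC and at most 0.0561 in ASC. Immune markers came to 9.90 and 9.12 FPKM in FISC WT and iKO and to 4.23 and 15.5 in ASC WT and iKO. In ASC WT and iKO, Cd14 stood at 2.80 and 9.75 FPKM, Cd68 at 1.36 and 5.16 and Lyz2 at 0 and 0.554. Csf1r stood at 0.0535 and 0, Itgam at 0.0146 and 0.0221, and Ptprc at 0 in both. The part of these other cells in the results was not tested. In these bulk libraries, fewer cells of a type and less RNA per cell cannot be told apart. The ASC libraries also differed in other ways: Mir762, a microRNA gene, took 39.8% of the summed FPKM in ASC iKO, and the steps of low values (17.2% of 1573 low genes shared 1) put that library at 0.667 reads per WT read, against 1.01 in FISC.

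YY1 peaks were found at the 5′ ends of many of these genes in activated cells. A peak summit lay within 2 kb of a locus end for 22 of the 77 genes, 28.6% with an exact 95% binomial interval of 18.8% to 40.0%. Over all listed genes the share was 3.62%, over the genes tested in ASC (at least 1 FPKM in 1 of the 2 libraries) 6.21%, and over genes with at least 10 FPKM in ASC WT 8.02%. By subunit, 11 of 48 large subunit genes (22.9%, interval 12.03% to 37.3%) and 11 of 29 small subunit genes (37.9%, interval 20.7% to 57.7%) had such a peak. These intervals overlap and cover counting error only, and all peaks come from a single list of 2031 called on 1 library. The difference between the subunits was not tested.

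**Figure D1:**
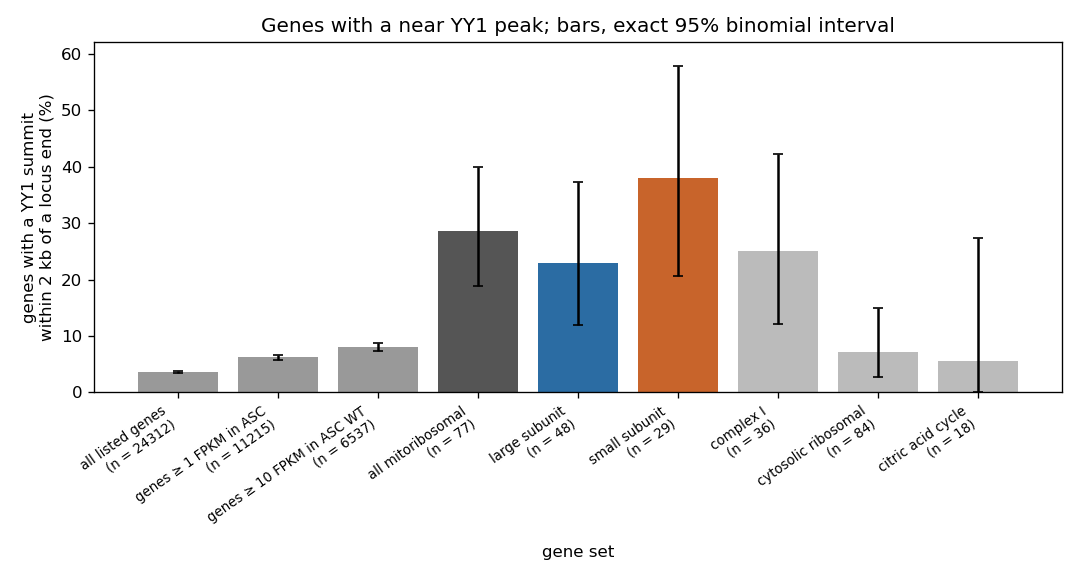
Share of genes (%) with a YY1 peak summit within 2 kb of either end of the listed locus, for all genes and gene sets; error bars are exact 95% binomial intervals. Mitochondrial ribosomal genes (28.6%) and complex I genes (25%) are above cytosolic ribosomal protein genes (7.14%), and the large and small subunit intervals overlap.

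The summits sat close to the gene starts. All 22 lay within 5 to 131 bases of a locus end, with a median of 32, and so a window of 200 bases found the same number. For 21 of them the strand was known from RefSeq, and each of these was at the 5′ end, 17 inside the locus and 4 upstream. The other is at Mrps35, whose strand was not matched, with its summit 28 bases from the nearer end. Just outside the 2 kb window, the nearest was Mrpl37 with a summit at 3835 bases from its locus end. Mrps23, Mrps6 and Mrpl48 had summits 7656, 7879 and 33823 bases inside their long listed loci.

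**Figure D2:**
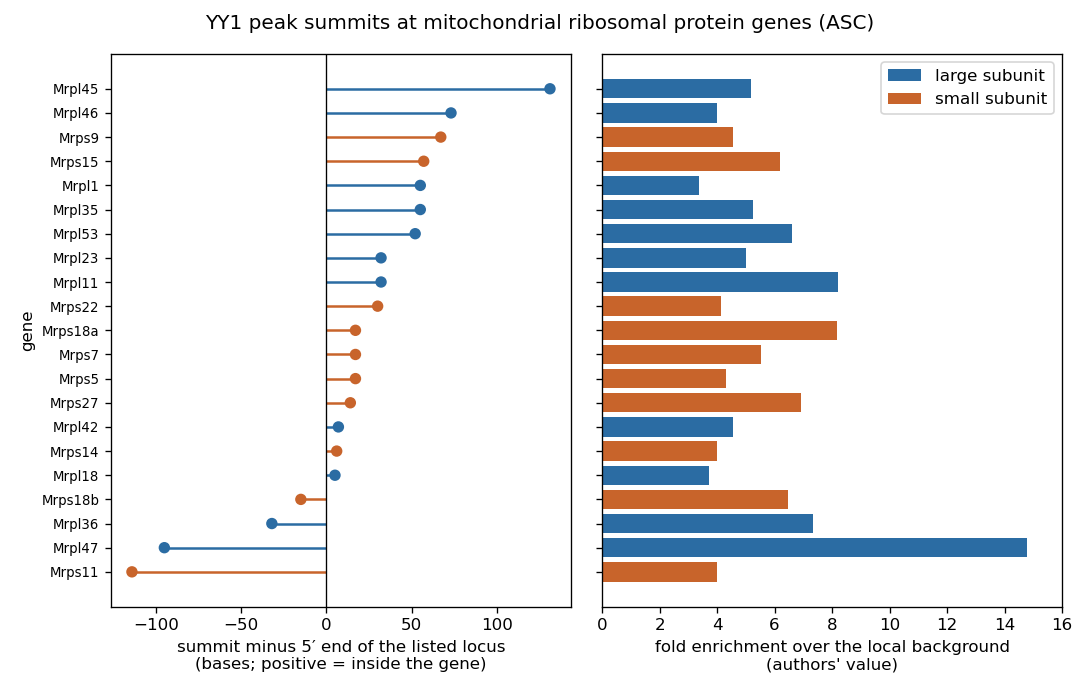
Distance in bases of the YY1 peak summit from the 5′ end of the listed locus (left, positive inside the gene) and the fold enrichment given by the authors (right) for the 21 mitochondrial ribosomal protein genes with a matched strand. Summits span 114 bases upstream (Mrps11) to 131 bases inside (Mrpl45), and Mrpl47 has the highest fold at 14.8.

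The strongest peak belonged to Mrpl47, a large subunit protein near the polypeptide exit tunnel. It spans 32635629 to 32636078 on chromosome 3 (mm9), 450 bases, with a summit 95 bases upstream of the Mrpl47 locus (32626418 to 32635677). Its fold enrichment by the authors' peak caller was 14.8 and its −log10 q was 23.2, rank 16 of the 2031 peaks by the authors' p. The same peak lies within 1 kb of Ndufb5, a complex I subunit gene on the other side, so the 2 genes share it. RefSeq's promoter of Mrpl47 on build GRCm38.p6, 250 bases before the start, does not hold the full YY1 motif AANATGGCG searched below. It holds the shorter letters AANATGGC, chosen after the data had been seen, at 2 places on the opposite strand, at -242 and -90 from the start. It is shown as the promoter of the gene with the strongest peak, with the matches in capitals (chr3:32736756-32737005, minus strand):
Mrpl47: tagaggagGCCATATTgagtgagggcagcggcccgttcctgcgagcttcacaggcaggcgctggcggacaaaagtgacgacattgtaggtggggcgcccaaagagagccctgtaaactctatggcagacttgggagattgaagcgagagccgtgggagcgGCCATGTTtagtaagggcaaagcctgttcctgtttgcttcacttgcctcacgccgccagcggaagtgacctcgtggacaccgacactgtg

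After Mrpl47 came Mrpl11, part of the stalk base that binds translation factors, with a fold of 8.20, and Mrps18a with 8.19. Mrpl36, a small protein of the large subunit, had 7.34, Mrps27 6.91, Mrpl53 6.60, Mrps18b 6.45 and Mrps15 6.19. Mrps7, whose protein lies in the head of the small subunit, had 5.53. Mrps35 had 5.45, Mrpl35 5.26 and Mrpl45, which anchors the ribosome to the inner membrane, 5.18. These 12 peaks reached the authors' q of 0.01 or less, 57.1% of the 21 different peaks at these genes, where 16.15% of all 2031 peaks did. Of all 2031 peaks, only 619 lay within 2 kb of any locus end. Counting only peaks at this q left 6 large and 6 small subunit genes, beside 3.26% of the genes tested in ASC. Among tested genes, 366 of the 697 with a near peak kept one at this q, a share close to that of the members, 12 of 22.

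The weaker peaks were those at Mrpl23 (fold 5.01), Mrpl42 (4.57), Mrps9 (4.56), Mrps5 (4.32), Mrps22 (4.12), Mrps14 (4.01), Mrpl18 (3.71) and Mrpl1 (3.37). The peak with the lowest −log10 q among them, 0, is shared by Mrpl46 and Mrps11, a large and a small subunit gene that face away from each other with 41 bases between their loci on chromosome 7. Its summit is 73 bases inside Mrpl46 and 114 bases upstream of Mrps11, with a fold of 3.98. For 8 of the 22 genes another listed locus has an end within 1 kb of the summit, among them Ptcd2 at Mrps27 and Tcp1 at Mrpl18, and the peak cannot be told apart between such neighbours.

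The YY1 motif was searched as AANATGGCG on both strands of the RefSeq promoters, 250 bases before to 50 after each start. Promoters were found for 68 of the 77 genes. The motif was present in 10 of the 68 genes (14.7%), in 6.63% of all tested genes with a promoter and in 2.76% of all genes of the promoter table. Among the 21 members with both a near peak and a promoter it was in 6 (28.6%), and among the 47 without a near peak in 4 (8.51%). For comparison, 36.5% of all tested genes with a near peak held it. These are the 6 members with a near peak, shown because their letters can be set beside the summits, 30 bases each, with the motif in capitals.
Mrps18a: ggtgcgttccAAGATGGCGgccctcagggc
Mrps27: ggtgcgctccAAGATGGCGgctcccatggt
Mrpl35: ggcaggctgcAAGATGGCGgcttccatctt
Mrpl42: agattgaagcAAGATGGCGagcgcgcggtg
Mrpl36: cgtgaccttaCGCCATCTTtcttcctggcg
Mrps11: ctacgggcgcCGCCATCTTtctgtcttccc

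On GRCm38.p6 these windows are chr17:46111005-46111034 (plus strand) for Mrps18a, chr13:99344790-99344819 (plus) for Mrps27 and chr6:71823742-71823771 (minus) for Mrpl35. Those of Mrpl42, Mrpl36 and Mrps11 are chr10:95501903-95501932 (minus), chr13:73330968-73330997 (plus) and chr7:78783013-78783042 (plus). In the first 4 the motif runs with the gene and begins 12 to 28 bases after the start. In Mrpl36 and Mrps11 it runs against the gene, 31 and 108 bases before the start. All 6 hold the same 9 letters, AAGATGGCG or its complement. Set beside the mm9 summits, each measured from its own table's start, the motif began at 12 and the summit lay at 17 in Mrps18a, at 15 and 14 in Mrps27, at -31 and -32 in Mrpl36 and at -108 and -114 in Mrps11. In Mrpl35 the values were 24 and 55, and in Mrpl42 28 and 7. The starts of the 2 sources may differ by some bases.

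The other 4 members with the motif have no near peak in the list, and are shown as the contrast to the first set.
Mrpl27: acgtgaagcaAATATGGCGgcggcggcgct
Mrpl37: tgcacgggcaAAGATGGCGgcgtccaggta
Mrps24: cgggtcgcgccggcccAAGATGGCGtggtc
Mrps30: gcggcgggcgAAAATGGCGgcggccaggta

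These lie at chr11:94653789-94653818 (plus), chr4:107066821-107066850 (minus), chr11:5707652-5707681 (minus) and chr13:118387218-118387247 (minus). In all 4 the motif begins 9 to 37 bases after the start and runs with the gene. Mrpl37 and Mrps24 hold the same 9 letters as the members with a peak, and Mrpl27 and Mrps30 differ from them at the free letter. A match describes letters only and is no binding site.

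Motifs of 2 other regulators of nuclear genes for mitochondrial proteins were searched the same way. The ETS motif CCGGAAG, read by GABP, was in 25 of the 68 genes (36.8%), against 21.6% of tested genes and 9.93% of all genes of the table. Among members it was in 6 of 21 with a near peak and in 19 of 47 without. The NRF1 motif, GCGC and TGCGC with 1 free letter between, was in 13 of 68 (19.1%), against 12.6% and 5.19%. Letters may overlap between motifs, and shares of promoters that hold a motif are descriptions. The promoter of Mrps21, the gene with the highest iKO over WT ratio below, is shown because it holds both. Those of Mrpl17, Mrpl57 and Mrps26 hold both as well. In Mrps21 the places are as follows. The ETS letters begin 19 bases after the start at chr3:95871478-95871507 and the NRF1 letters 91 before it at chr3:95871586-95871615 (both minus strand).
Mrps21, ETS: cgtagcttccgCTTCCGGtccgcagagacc
Mrps21, NRF1: ggaaagtccaGCGCCTGCGCtcagcaccga

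In level, these genes were moderately expressed and higher in the ASC libraries. The median over the 77 genes was 13.1 FPKM in FISC WT, 11.97 in FISC iKO, 49.8 in ASC WT and 82.1 in ASC iKO. Large subunit genes had medians of 11.0, 10.4, 47.9 and 81.7 FPKM in that order, and small subunit genes 14.6, 13.9, 54.6 and 82.6. The subunits overlapped widely in each library. Across genes the spread was wide in FISC WT, where the highest gene was 103 times the lowest, and narrower in ASC WT at 28.6 times.

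**Figure D3:**
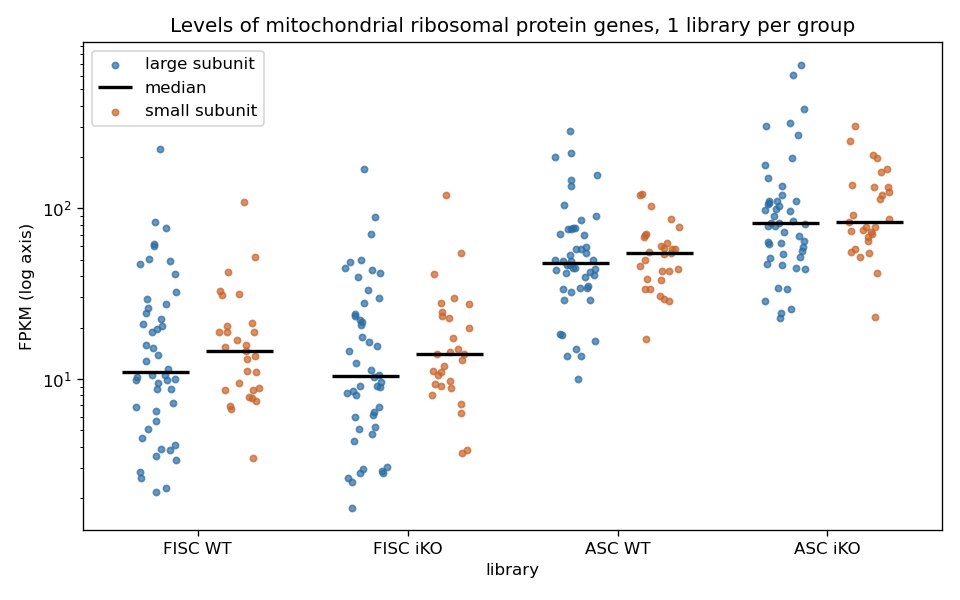
FPKM (log axis) of each mitochondrial ribosomal protein gene in the 4 RNA libraries, 1 library per group; points are genes and lines are medians. Medians stand at 10.4 to 14.6 FPKM in FISC and at 47.9 to 82.6 FPKM in ASC, with the large and small subunit overlapping in each library.

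Mrpl52, a large subunit protein, was the highest of the 77 genes in each library, at 223 FPKM in FISC WT, 169 in FISC iKO, 285 in ASC WT and 696 in ASC iKO. Next in FISC were Mrps6, which shares its listed locus with Slc5a3, at 109 and 120 FPKM in the WT and iKO libraries, and Mrpl33. Next in ASC WT was Mrpl12, the stalk protein that binds translation factors, at 41.4 and 43.8 FPKM in FISC WT and iKO and at 212 and 380 in ASC WT and iKO. Lowest in FISC WT were Mrpl1 (2.17 FPKM), Mrpl19 (2.28) and Mrpl11 (2.62). Lowest in ASC WT were Mrpl57 (9.97 FPKM), Mrpl41 (13.7) and Mrpl17 (13.7). The order in WT was largely shared between the states, with a Pearson's r of 0.80 and a Spearman's rho of 0.79 over the 77 genes. The points are genes that share their libraries, so this is a description.

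In freshly isolated cells the iKO and WT libraries were close. None of the 77 genes was 2-fold higher or lower with 1 added to each FPKM, where 0.677% of 11229 tested genes were higher and 0.721% lower. The median log2 ratio, iKO over WT, was −0.08 over all members, −0.11 over the large and 0.03 over the small subunit, beside 0.00 over all genes. Of the members, 36 stood above 0, where 49.6% of all genes did, and 41 below, where 50.4% did.

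The lowest ratio in FISC was that of Mrpl22, a protein of the exit tunnel, at 5.08 FPKM in WT and 2.49 in iKO, a log2 ratio of −0.80. In ASC the same gene stood at 49.3 and 98.8 FPKM. Mrps22, whose loss causes a mitochondrial translation defect in patients, stood at 6.92 and 3.82 FPKM in FISC WT and iKO, −0.72, and at 60.5 and 82.6 in ASC. Mrps2 stood at 11.0 and 6.28 in FISC, −0.72, and at 38.0 and 41.9 in ASC. Each of these was thus lower in iKO in FISC and higher in ASC as deposited. With equal sums without small RNA genes, the ASC ratio of Mrpl22 was 0.42, but that of Mrps22 was −0.12 and that of Mrps2 −0.42. Mrpl43 (−0.63), Mrpl27 (−0.58) and Mrps30 (−0.54) were the other low ones.

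At the upper end in FISC was Mrps27, a pentatricopeptide repeat protein of the small subunit, at 6.65 FPKM and 10.5 FPKM in the WT and iKO libraries, a log2 ratio of 0.59. It shares its listed locus with another transcript, and stood at 42.6 and 74.7 FPKM in ASC. Mrpl34 had 0.41, Mrpl40 0.35, Mrps11 0.34, Mrps9 0.32 and Mrpl38 0.30. No member reached 2-fold in this direction.

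In activated cells nearly all of these genes stood higher in the iKO library. The log2 ratio was above 0 for 76 of the 77 genes, and for 55 when both libraries were scaled to the same FPKM sum without small RNA genes. As deposited, 49.8% of all tested genes were above 0 and 50.2% below. At least 2-fold higher were 25 of 77, 15 of 48 in the large and 10 of 29 in the small subunit, where 8.74% of 11215 tested genes were. None was 2-fold lower, where 8.26% of all genes were. The median log2 ratio was 0.79, 0.85 for the large and 0.76 for the small subunit, beside 0.00 over all genes. The subunit medians differed by 0.09, and by −0.24 once locus length was taken into account, as given below. On the scale of equal sums without small RNA genes, the count at least 2-fold higher was 2 instead of 25, 1 in each subunit. There 1.46% of all tested genes were at least 2-fold higher. The member median was 0.23 on that scale, beside −0.49 over all tested genes. The share of all tested genes above 0 was not counted on that scale.

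**Figure D4:**
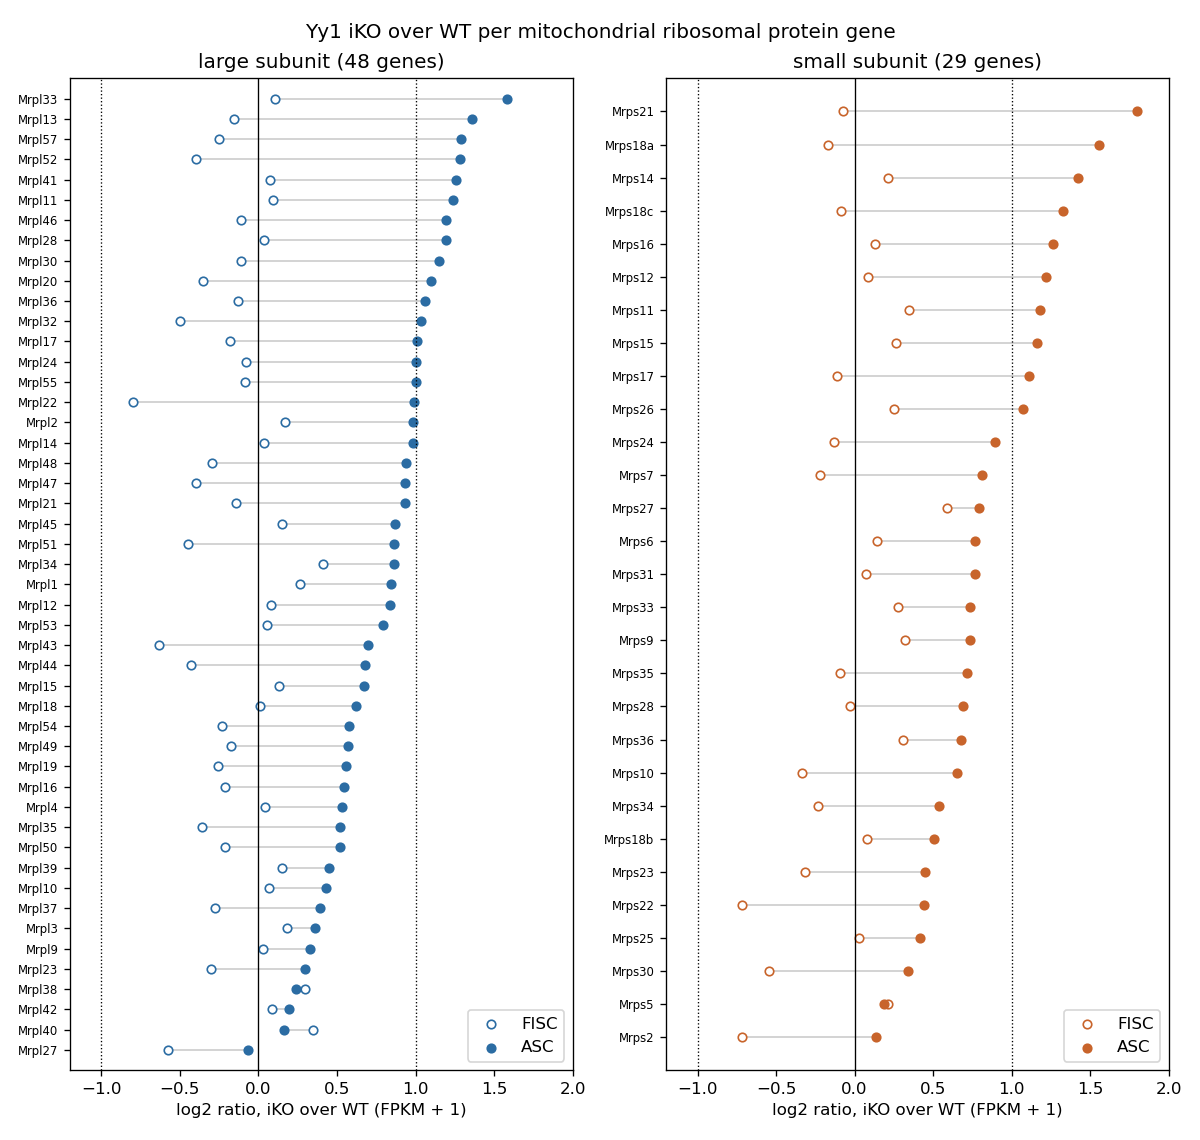
Log2 ratio of FPKM + 1, Yy1 iKO over WT, for each gene in FISC (open circles) and ASC (filled circles), large subunit left and small subunit right; dotted lines mark 2-fold. In ASC 76 of 77 genes are right of 0 (55 when scaled to equal sums without small RNA genes) and 25 reach 2-fold, and in FISC none does. On that equal-sum scale the ASC median of all tested genes is −0.49.

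Of the small subunit, Mrps21, a protein with a bacterial counterpart, had the highest ratio. It lies on chromosome 3 at 95666574 to 95674542 (mm9). It stood at 31.4 FPKM in FISC WT, 29.8 in FISC iKO, 86.8 in ASC WT and 304 in ASC iKO, a 3.47-fold difference in ASC and a log2 ratio of 1.80. The ASC iKO library was the high one, while the FISC pair was nearly level. Mrps18a on chromosome 17 (46247952 to 46265857), which despite its name sits in the large subunit of the assembled ribosome, stood at 31.0, 27.4, 55.2 and 164 FPKM in the same order, a log2 ratio of 1.56 in ASC. Mrps14, of the head of the small subunit, stood at 7.69, 9.06, 28.4 and 77.7 FPKM, and had a ratio of 1.42. Mrps18c, a paralog of Mrps18a, stood at 13.7, 12.8, 77.8 and 197 FPKM, a ratio of 1.33. Mrps16 stood at 21.3, 23.5, 103 and 250 FPKM, a ratio of 1.26. In each of these 5 genes only the ASC pair differed by 2-fold.

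At the lower end of the small subunit in ASC were Mrps2 (0.14), Mrps5 (0.19), Mrps30 (0.34), Mrps25 (0.42) and Mrps22 (0.44). Mrps5, of the body of the small subunit near the entry of the message, stood at 17.0 FPKM in FISC WT, 19.9 in FISC iKO, 68.1 in ASC WT and 77.7 in ASC iKO. Its ASC pair was as close as its FISC pair. Mrps30, which sits in the large subunit of the ribosome, stood at 14.6, 9.71, 43.9 and 55.7 FPKM. Mrps25 stood at 7.81, 7.99, 17.0 and 23.1 FPKM, but its listed locus is shared with Nr2c2.

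Among large subunit genes the highest ratio was that of Mrpl33 on chromosome 5 (31916323 to 31925017), a small protein with a bacterial counterpart. It stood at 82.7 FPKM in FISC WT, 88.9 in FISC iKO, 201 in ASC WT and 604 in ASC iKO, 2.99-fold and a log2 ratio of 1.58 in ASC. Mrpl13 stood at 26.1, 23.3, 105 and 271 FPKM, a ratio of 1.36. Mrpl57, also known as Mrp63, stood at 3.53, 2.81, 9.97 and 25.8 FPKM, a ratio of 1.29. The ASC iKO library was the highest of the 4 libraries for all 3 genes. Mrpl52, given above, had 1.28, and Mrpl41, whose listed locus is shared with Dph7, had 1.26 (13.7 and 34.03 FPKM in ASC WT and iKO).

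Mrpl27, a protein that reaches the peptidyl transferase centre, was the only member below 0 in ASC as deposited. With equal sums without small RNA genes 22 were below 0, and the median of all tested genes was −0.49. Mrpl27 stood at 18.9 FPKM in FISC WT, 12.3 in FISC iKO, 46.6 in ASC WT and 44.4 in ASC iKO. Its log2 ratio was −0.07 in ASC and −0.58 in FISC. The next lowest in the large subunit were Mrpl40 (0.16), Mrpl42 (0.20), Mrpl38 (0.24) and Mrpl23 (0.29). Mrpl42 stood at 22.5, 23.9, 157 and 180 FPKM in the same order of libraries. Mrpl23, of the exit tunnel, stood at 61.4, 49.7, 89.9 and 110 FPKM.

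The 2-fold line ran through a dense stretch of large subunit genes. Just inside were Mrpl55 (1.002), Mrpl24 (1.003) and Mrpl17 (1.01), and just outside Mrpl22 (0.99), Mrpl2 (0.99) and Mrpl14 (0.98). At 1.5-fold or more were 52 of the 77 genes, where 21.3% of all tested genes were.

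Genes numbered up to 36 in the large and up to 21 in the small subunit were set beside those with higher numbers. The number stood in for a bacterial counterpart, which was not looked up gene by gene, so single genes may be misplaced. This split was chosen after values had been seen. In the small subunit the first group had a median ASC log2 ratio of 1.14 with 9 of 16 genes at least 2-fold higher, and the second 0.69 with 1 of 13, Mrps26. In the large subunit the medians were 0.90, with 10 of 28, and 0.75, with 5 of 20. Of all tested genes 8.74% were at least 2-fold higher. The groups also differ in locus length, with which the ASC ratio went, as given below. Median loci were 6.98 and 12.9 kb in the small and 7.47 and 8.08 kb in the large subunit. The part of length in this contrast was not tested. In FISC the medians of the 4 groups were 0.08 for small up to 21, −0.03 for small above, −0.03 for large up to 36 and −0.19 for large above.

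Read across the states, 74 of the 77 genes had a higher ratio in ASC than in FISC, where 50.8% of 10251 genes tested in both states did, with a median difference of 0.83 in log2. The 3 exceptions were Mrpl40, Mrpl38 and Mrps5. With equal sums without small RNA genes in each state, 57 of 77 did, with a median difference of 0.25. On that scale the median ratios of all tested genes were 0.03 in FISC and −0.49 in ASC. As deposited, 40 of the 77 were below 0 in FISC and above 0 in ASC, where 22.3% of all genes were, and 36 were above 0 in both, where 27.9% were. The ratios of FISC and ASC were nearly unrelated across the 77 genes (Pearson's r 0.12, Spearman's rho 0.09).

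The ASC ratio went with locus length over all genes. In the decile with the shortest loci, at most 4.44 kb, the median ratio of all genes was 0.67 and 29.2% were at least 2-fold higher, while in the decile with the longest, above 120 kb, the median was −0.48. Mitochondrial ribosomal protein genes are short, with a median locus of 7.78 kb against 24.5 kb over all tested genes. In the shortest decile the 20 members had a median of 0.99, with 10 at least 2-fold higher. Set against the median of their own length class, 68 of 77 members were above it, with a median excess of 0.44. At least 2-fold above it were 12, where 5.63% of all tested genes were, and 6 of these 12 were among the 25 genes 2-fold higher as deposited. On that scale the subunits changed order, with 0.35 for the large and 0.59 for the small subunit.

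**Figure D5:**
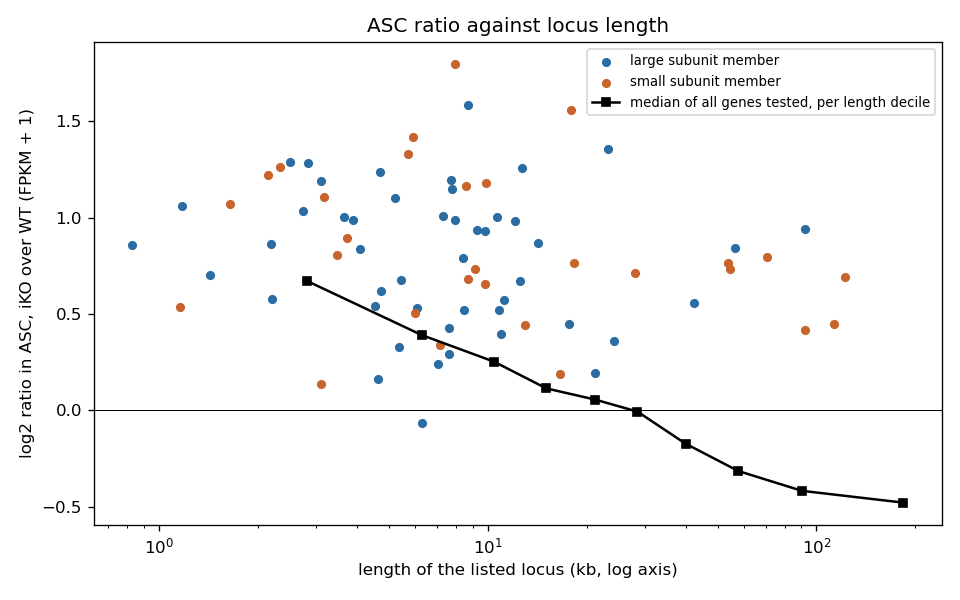
Log2 ratio in ASC, iKO over WT, against the length of the listed locus (kb, log axis); points are mitochondrial ribosomal protein genes and squares the median of all tested genes in each length decile. The line descends from 0.67 to −0.48, and 68 of 77 points lie above the median of their own decile.

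Long members make this visible. Mrps28 (122 kb listed) stood at 69.9 FPKM in ASC WT and 113 in ASC iKO, 1.17 above the median of its length class. Mrpl1 (56.6 kb) stood at 18.4 and 33.7 FPKM, 1.16 above. Mrps18a (17.9 kb) was 1.44 and Mrps21 1.40 above. Below their class were Mrps2 by −0.53, Mrpl27 by −0.46 and Mrpl40 by −0.23. Across the 77 genes, length and ratio were weakly related (Pearson's r −0.18, Spearman's rho −0.21). The part of length in the ratio was not tested further.

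The scale between the ASC libraries also matters. With both libraries brought to the same FPKM sum after small RNA genes were left out, all genes shifted by a median of −0.49 in log2. On that scale the median of members was 0.23, 55 of 77 stood above 0 and 2 were at least 2-fold higher, Mrps21 (1.23) and Mrpl33 (1.01), while 1.46% of all tested genes were. Mrps18a stood at 0.99. Upper-quartile scaling, in contrast, left the all-gene median at −0.05 and 76 of 77 members above 0.

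Members with and without a near YY1 peak had similar ratios in ASC. The 22 members with a near peak had a median log2 ratio of 0.80 with 7 at least 2-fold higher, and the 55 without had 0.77 with 18. After subtraction of the length class median the groups were 0.28 apart, the members with a peak higher. Over all tested genes the medians were 0.05 with a near peak and −0.01 without, and the shares at least 2-fold higher 11.5% and 8.56%. Mrpl47, with the strongest peak, stood at 57.7 FPKM in ASC WT and 111 in ASC iKO (0.93), and Mrps21, with the highest ratio, had no near peak. The median of the 10 members with AANATGGCG was 0.66 and that of the 58 with a promoter and no match 0.86.

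Activation was described by setting ASC over FISC within a genotype, after scaling to the same FPKM sum. The 2 states come from separate tables that may have been normalized separately, and these comparisons share libraries with those above. In WT, 65 of 77 members were at least 2-fold higher in ASC, where 34.1% of all genes were, with a median log2 ratio of 1.90 beside 0.50 over all genes. In iKO, 57 of 77 were, where 11.3% of all genes were, with a median of 1.51 beside −0.63. No member was 2-fold lower in either, where 16.1% of all genes were in WT and 39.3% in iKO. The large subunit had medians of 2.05 in WT and 1.61 in iKO, the small 1.79 and 1.30. The order of WT above iKO turns with the scale, since the ASC iKO sum includes Mir762. Without small RNA genes the member median was 1.90 in WT and 2.22 in iKO, beside 0.50 and −0.04 over all genes, and 68 members were at least 2-fold higher in iKO, where 22.7% of all genes were. With upper-quartile scaling the member medians were 1.45 and 2.24.

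Mrpl34 had the highest activation ratio in WT, at 3.35 FPKM in FISC WT and 44.8 in ASC WT, a log2 ratio of 3.50. Mrpl18 stood at 6.83 and 69.9 FPKM (3.29) and Mrpl22 at 5.08 and 49.3 (3.16). Mrps22 and Mrps31, at 3.07 and 3.06, were the highest of the small subunit. At the other end, Mrpl48, whose listed locus also holds Rab6a, stood at 59.9 and 53.0 FPKM in WT (−0.07), and Mrps6 at 109 and 120 (0.25). Mrpl52, the most abundant member, stood at 223 and 285 (0.46). These activation genes were chosen after their values were seen.

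Of the ribosomal proteins without an Mrp symbol, 3 of 7 were at least 2-fold higher in ASC iKO: Chchd1 (128 and 382 FPKM), Aurkaip1 (85.8 and 199) and Ict1 (55.2 and 127), a peptidyl-tRNA hydrolase built into the large subunit. Their median was 0.97, close to the 0.79 of the members. Dap3, a GTP-binding protein of the small subunit, stood at 27.2 and 54.3 FPKM, and Ptcd3 at 68.2 and 86.2 with a YY1 summit 8 bases from its locus end. The factors that work with the ribosome stood lower, but their loci are longer. In the order given next, the median loci were 17.3, 15.6 and 18.2 kb, against 7.78 kb for the members. The part of length in this was not tested. Of 13 translation factors 2 were at least 2-fold higher (Tsfm and Mtif3, median 0.23), of 30 assembly and RNA modification factors 3 (Malsu1, Ngrn and Mpv17l2, median 0.38), and of 15 transcription and RNA handling genes 1 (Slirp), with 1 lower (Pnpt1) and a median of 0.15. Tufm, the elongation factor that brings aminoacyl-tRNA, stood at 118 FPKM in ASC WT and 172 in ASC iKO.

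Other gene sets give the frame. Cytosolic ribosomal protein genes had an ASC median of 1.09 with 57 of 81 at least 2-fold higher, complex I genes 1.03 with 21 of 36, and citric acid cycle genes 0.13 with 0 of 18 higher and 1 lower. Near peaks were at 9 of 36 complex I genes (25%), 6 of 84 cytosolic ribosomal protein genes (7.14%) and 1 of 18 citric acid cycle genes. On activation in WT, complex I genes had a median of 1.35, citric acid cycle genes 1.25 and cytosolic ribosomal protein genes −0.28. The mitochondrial ribosomal genes thus had the highest activation median of these sets in WT, at 1.90, and stood below cytosolic ribosomal protein and complex I genes in the ASC ratio. Differences between these sets were not tested. The sets also differ in locus length, with which the ASC ratio went. Median loci were 3.14 kb for cytosolic and 7.78 kb for mitochondrial ribosomal protein genes. They were 8.66 kb for complex I and 22.4 kb for citric acid cycle genes. Of known regulators, Ppargc1b, a coactivator, stood at 2.67 FPKM in ASC WT and 0.485 in ASC iKO, Gabpa at 25.7 and 17.4, and Nrf1 at 20.9 and 15.8. Pprc1, with a YY1 summit 76 bases from a locus end, stood at 47.2 and 26.3 FPKM, and Myc at 181 and 140. Tfam, which packages mitochondrial DNA, stood at 23.2 and 39.4 FPKM, Esrra at 18.7 and 27.6, and Gabpb1 at 23.03 and 26.9. Of the 9 regulators at 1 FPKM or more, Yy1 among them, 3 stood above 0 and 6 below, with a median of −0.38.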

How the data were processed

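Expression values are FPKM, made by the authors and deposited as 1 table for FISC and 1 for ASC, per the file headers. The build mm9 and the tools MACS2 2.1.0, TopHat2 and Cufflinks 2.2.1 are listed without roles, per the submitters' processing notes. The annotation, strand setting and scaling are stated in none of the sources used here. For 11 members the listed locus also holds another symbol, so their values and ends are uncertain. YY1 peaks were deposited as 1 list in the narrowPeak layout, with a score, a fold enrichment, −log10 p and −log10 q per peak; all are the authors' own values. Total depth is unknown.

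Ratios were log2((FPKM + 1)/(FPKM + 1)) for genes with at least 1 FPKM in either library, and 2-fold is a threshold of size with no test behind it. Peaks were assigned by a summit within 2 kb of either locus end. Intervals are exact Clopper-Pearson at 95%. Promoters and strands came from RefSeq (GRCm38.p6, 68 of 77 members, 74 promoters), peaks and loci are on mm9, and no coordinate was converted. Python 3.11.15, pandas 2.3.3, numpy 2.4.6 and scipy 1.17.1 were used. The 2-fold calls were tested on simulated FPKM with changes larger than 2-fold. Equal-sum and upper-quartile factors were tested on a column multiplied by a known factor. Calls near the 2-fold line, the scale without small RNA genes and the peak steps were not tested. Genes given in full were the 5 highest and 5 lowest ASC ratios and 3 highest and 3 lowest FISC ratios of each subunit, the 3 highest and lowest levels, those next to the 2-fold line and those with a near peak. The members and lists were chosen with earlier results of these data known. Alternatives covered the pseudocount, filters, scaling, locus length, shared loci, the peak window, the peak threshold and shorter motifs.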

Additional observations from a re-analysis of the deposited data

Results flagged for a closer look

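The medians differed between the states in direction: over all 77 genes the iKO over WT log2 ratio was −0.08 in FISC and 0.79 in ASC, 0.87 apart, and over the large subunit −0.11 and 0.85, 0.96 apart. With equal sums without small RNA genes the ASC medians were 0.23 and 0.29, beside −0.49 over all tested genes. With 1 library per group this difference was not tested.

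For 15 of the 25 genes at least 2-fold higher in ASC iKO, the FISC ratio had the opposite sign. The distance from the FISC to the ASC log2 ratio was 1.87 for Mrps21, 1.73 for Mrps18a, 1.68 for Mrpl52, 1.54 for Mrpl57, 1.53 for Mrpl32 and 1.51 for Mrpl13. It was 1.45 for Mrpl20, 1.41 for Mrps18c, 1.31 for Mrpl46, 1.26 for Mrpl30 and 1.22 for Mrps17. Mrpl17 and Mrpl36 both had 1.19, Mrpl55 1.09 and Mrpl24 1.08. None of these differences was tested.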

How the results depend on the processing

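Of 184 recomputed values, 157 did not move beyond 0.1 in log2 or 1.5-fold in a count. Part of these could not move, so the 157 overstates how stable the results are. Each member was above 1 FPKM in every library, so the 18 values without a filter repeat the main result. The ASC values with a filter of 5 FPKM repeat it too, since all 77 members passed. Counts of 2-fold members in FISC were 0 as deposited and mostly stayed at 0. No gene called 2-fold changed sign, but the shifts from scaling and length were smaller than 2-fold and could not turn one. Among all 77 members, 22 stood below 0 in ASC with equal sums without small RNA genes, against 1 as deposited. The median of all tested genes was −0.49 on that scale. No paired analysis was possible because each group has 1 library. A pseudocount of 0.1 FPKM made 1 member 2-fold lower in FISC, Mrpl22. Equal sums without small RNA genes put the ASC medians at 0.23 (all), 0.29 (large) and 0.20 (small) and left 2 members at least 2-fold higher, 1 of the large and 1 of the small subunit. After subtraction of the length class median, the ASC medians were 0.44, 0.35 and 0.59, the large minus small difference went from 0.09 to −0.24, the difference between members with and without a near peak was 0.28, and 12 members, 5 of the large subunit, were at least 2-fold higher (5.63% of all genes). The median difference between the states was 0.25 with equal sums without small RNA genes, an alternative chosen after the data had been seen. The activation median in WT was 1.45 with upper-quartile scaling and 1.79 unscaled, and in iKO 2.22 without small RNA genes, 2.24 with upper-quartile scaling and 2.72 unscaled. Peaks at q of 0.01 or less left 12 members, 6 in each subunit. Shorter motifs were in 26.5% (ATGGCG), 55.9% (CGGAAG) and 4.41% (the NRF1 motif with A as its free letter) of the genes, beside 18.8%, 37.3% and 2.55% of all tested genes. AANATGGC, also chosen later, was in 29.4%, beside 10.8%. Where not given by the change itself, the cause was not tested. Unknown depth and 1 library per group limit all ratios.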
